A study of Mus musculus with 24 samples.

Results

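The genes described here code for 9 digestive enzymes of the intestinal brush border: the disaccharidases *Sis*, *Lct*, *Mgam* and *Treh* and the peptidases *Anpep*, *Dpp4*, *Mep1a*, *Mep1b* and *Enpep*. They were taken by symbol from the 55536 genes of the count table, by a rule that uses no measured value, although the list was drawn up with earlier results of these data known, and 9 of 9 passed the filter on low counts that left 14076 genes for testing. None of the 9 was called in any comparison of diet, metformin or sex at FDR = 0.05. The levels nevertheless differed widely between single libraries, by between 5.06-fold for *Anpep* and 3924-fold for *Lct*.

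The brush border is the microvillus-covered apical surface of enterocytes, the absorptive cells of the small intestine. Its hydrolases are anchored in or attached to the membrane and perform the last step of digestion, splitting disaccharides into monosaccharides and peptides into amino acids and short peptides for uptake. Lactase and sucrase-isomaltase are known to be expressed most strongly in the jejunum and to be controlled by the GATA, CDX and HNF1 transcription factors, whereas the ileum is known for bile acid uptake and for *Fabp6*, the ileal bile acid-binding protein.

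Gene expression was measured by RNA-Seq in C57BL/6N mice, 1 library per animal, from tissue labelled as the distal small intestine or ileum, in 4 groups of 6 animals (3 males, M1 to M3, and 3 females, F1 to F3). The CD group ate a control diet with 10% of energy from fat, and the HFD group a diet with 60%. The CDmetf and HFDmetf groups ate the same diets and were given metformin, an oral glucose-lowering drug, at 50 mg/kg/day in the drinking water for the last 10 of 30 weeks. Mice started at 4 to 5 weeks of age and lived 3 to a cage, with 1 animal per cage sequenced. Whole tissue was used, so that fewer enterocytes and less enterocyte RNA per cell cannot be told apart in any value below.

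Libraries held 1829690 to 40606442 reads on genes, so that 3 reads correspond to between 0.0705 and 1.71 CPM (read counts scaled to the TMM-normalized library size). The 10 largest genes took 85.4% of the reads in CD M3 and 36.6% in HFDmetf F2, against 9.22 to 18.97% in the other libraries. The library labelled HFD M2 held *Xist* at 1104 CPM and the library labelled HFD F2 at 0.428 CPM, with 0 and 181 CPM of 4 Y-linked genes, so both go against their sex labels. All 8 pan-epithelial markers were present in every group, with summed levels of 6115 to 10558 CPM over the libraries. The ileal *Fabp6* ranged from 0.817 CPM in HFD M3 to 2662 CPM in CDmetf F2, so this defining gene of the labelled tissue was near 0 in 1 library.

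On the scale of CPM per kilobase of exon, on which levels of different genes may be compared, *Anpep* had the highest median, 2139, and *Treh* the lowest, 54.9. *Anpep* codes for aminopeptidase N, the main neutral aminopeptidase of the brush border, and was above the next gene, *Sis* (495), in 24 of 24 libraries. The genes after it were closer together. The medians of *Mgam* (455), *Enpep* (370), *Mep1b* (355), *Mep1a* (269), *Lct* (141) and *Dpp4* (136) formed a descending order in which each gene, *Sis* included, was above the following one in only 13 to 17 of 24 libraries, so these neighbours lay within each other's spread. *Dpp4* was above *Treh*, which codes for trehalase, in 23 of 24 libraries. Together the 9 genes took 0.203% (CD M3) to 3.75% (CD M1) of the reads on genes.

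The genes lie on 8 chromosomes of GRCm38. By the GENCODE annotation *Sis* (ENSMUSG00000027790) spans chr3:72888557-72967863 and *Enpep* (ENSMUSG00000028024) chr3:129269175-129332720, both on the minus strand. *Lct* (ENSMUSG00000026354) is at chr1:128284756-128328318, *Mgam* (ENSMUSG00000068587) at chr6:40628831-40769123, *Treh* (ENSMUSG00000032098) at chr9:44673233-44686305 and *Anpep* (ENSMUSG00000039062) at chr7:79821803-79861059. *Dpp4* (ENSMUSG00000035000) is at chr2:62330073-62412231, *Mep1a* (ENSMUSG00000023914) at chr17:43474324-43502812 and *Mep1b* (ENSMUSG00000024313) at chr18:21061923-21100199. An antisense gene, *Gm13561*, covers 232 bases (3.67%) of the *Dpp4* exons, and its mean level was 1.72 CPM; the strand counted is not stated, so a small share of the *Dpp4* reads is uncertain.

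Sucrase-isomaltase splits sucrose and the branched ends of starch. *Sis* ranged from 1868 to 10861 CPM in CD (median 4469), from 1421 to 5612 in CDmetf (4333), from 2951 to 7831 in HFD (3592) and from 574 to 9243 in HFDmetf (3235). The 4 groups overlapped over most of their range. *Mgam*, the maltase-glucoamylase that completes starch digestion, ranged from 2819 to 8356 CPM in CD (median 4737), from 2625 to 6206 in CDmetf (4216), from 2361 to 4887 in HFD (3871) and from 1592 to 4596 in HFDmetf (3479). Its group medians descended in the same order as those of *Sis*, again with overlap of all groups. The ratio of *Sis* to *Mgam* CPM had a median of 0.950 and lay between 0.361 (HFDmetf M1) and 2.42 (HFDmetf F3).

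Lactase is the only enzyme of the group that splits milk sugar, and *Lct* varied most. It ranged from 16.2 to 3122 CPM in CD (median 1143), from 0.914 to 2531 in CDmetf (30.5), from 433 to 2882 in HFD (1285) and from 0.796 to 2166 in HFDmetf (928). In CDmetf 4 libraries lay between 0.914 and 46.7 CPM and 2 libraries at 2350 and 2531 CPM, while no HFD library was below 433 CPM. The lowest values rest on few reads, 5 in HFDmetf M1 and 4 in CDmetf M2. *Treh* ranged from 51.7 to 216 CPM in CD (median 101), from 44.8 to 245 in CDmetf (74.8), from 81.6 to 341 in HFD (170) and from 24.5 to 186 in HFDmetf (132). HFD had the highest group median of *Treh* and of *Lct*, and CDmetf the lowest.

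Among the peptidases *Anpep* ranged from 3932 to 11280 CPM in CD (median 9898), from 7128 to 10067 in CDmetf (8846), from 5346 to 11820 in HFD (9964) and from 2336 to 9658 in HFDmetf (5895). *Enpep*, which codes for aminopeptidase A and removes acidic residues, ranged from 783 to 2558 CPM in CD (median 2072), from 1343 to 2819 in CDmetf (1645), from 1263 to 2089 in HFD (1653) and from 517 to 2270 in HFDmetf (1194). The lowest values of both aminopeptidases were in CD M3, HFDmetf M1 and HFDmetf F2. *Dpp4*, the dipeptidyl peptidase that also inactivates incretin hormones, ranged from 290 to 1614 CPM in CD (median 1059), from 525 to 1436 in CDmetf (811), from 720 to 1097 in HFD (931) and from 188 to 1458 in HFDmetf (628).

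Meprins are metalloproteases built from α and β subunits. *Mep1a*, the α subunit, ranged from 340 to 1457 CPM in CD (median 832), from 392 to 1457 in CDmetf (1024), from 87.0 to 1162 in HFD (906) and from 265 to 1140 in HFDmetf (525). *Mep1b*, the β subunit, ranged from 296 to 1164 CPM in CD (median 963), from 452 to 1255 in CDmetf (766), from 787 to 1176 in HFD (972) and from 201 to 1128 in HFDmetf (695). The subunits were not in a fixed proportion. The *Mep1a* to *Mep1b* ratio had a median of 1.01 and went from 0.0913 in HFD M3 to 2.06 in CDmetf M2.

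**Figure D1:**
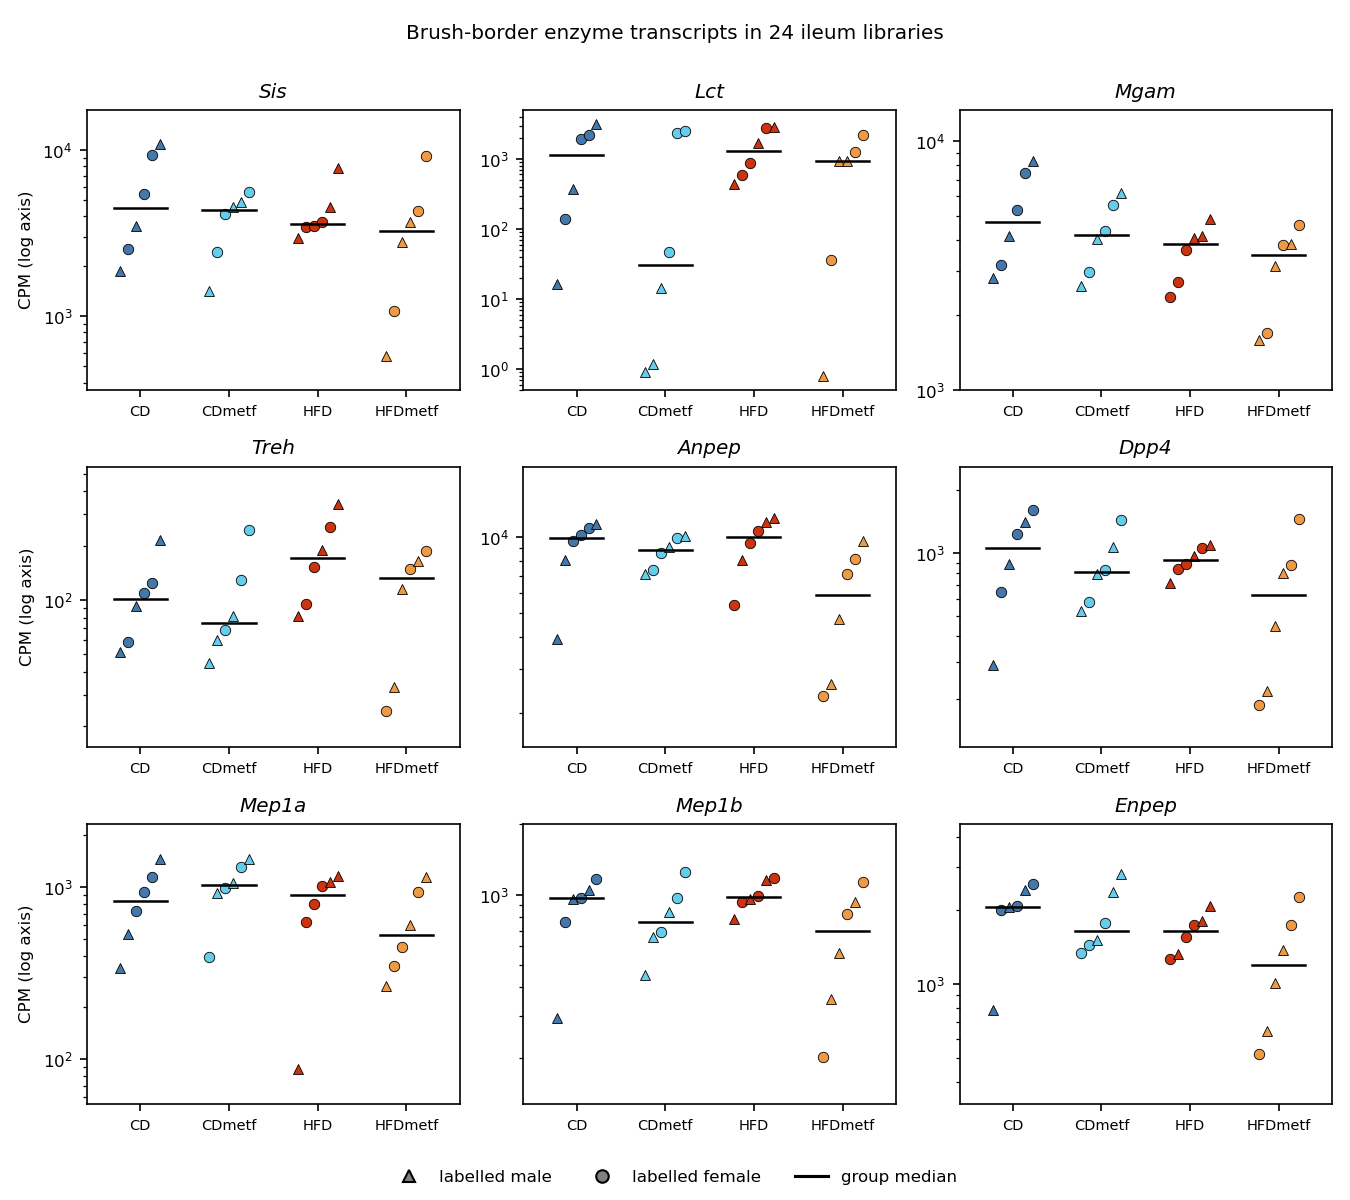
Level of each enzyme transcript in CPM (vertical log axis) in the 6 libraries of each group (triangles labelled male, circles labelled female), with the group median as a bar. The groups overlap for every gene; *Lct* spans 0.796 to 3122 CPM, and the lowest HFDmetf points of *Anpep*, *Dpp4*, *Mep1b* and *Enpep* are the same library, HFDmetf F2.

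The effect of the diet without the drug was examined first (HFD vs. CD). None of the 9 genes was called in the quasi-likelihood test of edgeR (FDR after Benjamini and Hochberg), nor were any of the 14076 genes tested (0%), and 0 of 9 had an unadjusted p under 0.05 against 4.63% of all genes. *Treh* (logFC = 0.77, SE 0.44; FDR = 1.00), *Lct* (logFC = 1.08, SE 1.39; FDR = 1.00) and *Mgam* (logFC = −0.47, SE 0.33; FDR = 1.00) had the values farthest from 0. Without HFD M2 and HFD F2, the libraries that go against their sex labels, *Mgam* was at −0.82 with an unadjusted p of 0.0431 (FDR = 1.00), the 1 of the 9 genes under 0.05, beside 3.94% of all genes. *Lct* lay between 0.61 (without the same pair) and 2.06 (without CD M1). All 6 genes of the proximal intestine list were positive in this comparison (median 2.47), 4 of them with an unadjusted p under 0.05, as were all 8 B cell markers (median 1.94), while 5 of 5 pancreatic acinar genes tested were negative (median −3.07). The 9 genes of the distal intestine list were mixed, 4 positive and 5 negative (median −0.04). The part of these lists in the enzyme values was not tested. The median logFC of the 9 enzymes was −0.07, beside −0.0047 for all genes, with 4 positive and 5 negative. The 95% confidence interval reached from −1.80 to 3.97 for *Lct* and from −0.46 to 0.84 for *Mep1b*, so a change of several fold in *Lct* was not detectable with these animals, while for *Mep1b* the interval stayed within a 2-fold change in either direction. In a fit of only the 12 samples compared, 1 of 9 genes had an unadjusted p under 0.05, beside 4.62% of all genes, and 0 were called.

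In the animals that received metformin (HFDmetf vs. CDmetf), 0 of 9 genes were called, beside 0% of all genes, and 0 of 9 had an unadjusted p under 0.05 beside 7.87%. Of the 9 values 7 were negative, with a median logFC of −0.43 against 0.03 for all genes tested. All 5 peptidases were among the negative ones, from *Mep1b* (logFC = −0.29, SE 0.32; FDR = 0.824) to *Mep1a* (logFC = −0.70, SE 0.48; FDR = 0.721). *Enpep* had the smallest unadjusted p of the 9, 0.0764 (logFC = −0.60, SE 0.32; FDR = 0.651 by edgeR). With limma-voom 2 of 9 genes had an unadjusted p under 0.05, beside 8.99% of all genes. It was 1 of 9 with no filter on low counts, beside 5.65%, and 1 of 9 in a fit of only the 12 samples compared, beside 8.02%. In each of these settings 0 were called. *Lct* (logFC = 1.72, SE 1.64; FDR = 0.800) and *Treh* (logFC = 0.21, SE 0.44; FDR = 0.911) were positive, and *Lct* lay between 0.66 without HFDmetf M2 and 3.09 without CDmetf F3. Without HFDmetf M1 and HFDmetf F2, 5 of the 9 values were negative and the median was −0.04. This pair, with the lowest summed levels of these genes, was chosen after seeing the data, so the rise followed from the choice.

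To examine the drug under the high-fat diet, HFDmetf was compared with HFD. No gene of the 9 was called, beside 0% of all genes, and 0 of 9 had an unadjusted p under 0.05 beside 6.61%. All 9 logFC values were negative, with a median of −0.44 against 0.03 for all genes tested. They reached from *Mgam* (logFC = −0.24, SE 0.32; FDR = 0.806) to *Anpep* (logFC = −0.72, SE 0.36; FDR = 0.640). The smallest unadjusted p values were those of *Mep1b* (0.0531; logFC = −0.65, SE 0.32; FDR = 0.640), *Anpep* (0.0582) and *Dpp4* (0.0908; logFC = −0.65, SE 0.37; FDR = 0.640) by edgeR, and *Treh* was at −0.70 (SE 0.43). With limma-voom in place of edgeR the median was −0.92, 5 of the 9 genes had an unadjusted p under 0.05, beside 6.57% of all genes, and 0 were called. With DESeq2 and with no filter on low counts, 2 of the 9 genes had an unadjusted p under 0.05, beside 7.98% and 4.81%, and 0 were called.

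All 9 values stayed negative with any single library left out, but not with every pair of libraries left out that was tried. HFDmetf M1 and HFDmetf F2 had the lowest summed levels of the 9 genes, 6628 and 6421 CPM, while the other HFDmetf libraries had at least 14669 CPM and the HFD libraries 16485 to 27477 CPM. The same libraries had *Vil1*, the microvillus actin-bundling gene villin, at 1151 and 694 CPM beside a median of 2065 CPM over all libraries. They differed in the pan-epithelial markers, whose mean z-score was 0.6425 in HFDmetf M1 and −1.575 in HFDmetf F2. HFDmetf M1 and HFDmetf F2 also had the highest *Lep* of the 24 libraries, 84.2 and 83.6 CPM, beside a median of 4.80. The 6 adipocyte markers summed to 40.2 to 469 CPM in HFDmetf and 23.7 to 183 CPM in HFD, with *Adipoq* and *Plin1* at 0 in some libraries. Such values were not confined to HFDmetf. CD M3, a control-diet library without metformin, had a sum of 10753 CPM for the 9 genes and *Vil1* at 1102 CPM. Its adipocyte markers summed to 407 CPM. In HFDmetf vs. HFD all 6 adipocyte markers were positive (median 1.43), as were all 5 smooth muscle (0.44), 6 fibroblast (0.56), 5 endothelium and pericyte (0.43) and 5 pancreatic acinar genes tested (3.12, 4 with an unadjusted p under 0.05). All 8 B cell markers were negative (median −2.48, 7 with an unadjusted p under 0.05), as were all 6 genes of the proximal intestine list (median −1.46). Of the 9 genes of the distal intestine list, 6 were positive and 3 negative (median 0.09). The part of these cell types and of the region in the enzyme fold changes was not tested. With the pan-epithelial score as covariate, 0 of 9 enzymes were called and 0 of 9 had an unadjusted p under 0.05, beside 5.25% of all genes. With the region score, described below, as covariate both counts were also 0 of 9, beside 5.42%. Without HFDmetf M1 and HFDmetf F2, the values of the 9 genes lay between −0.30 (*Anpep*) and 0.17 (*Lct*), with 6 negative and 3 positive and a median of −0.23. This pair was chosen after seeing the data and had the lowest sums, so leaving it out had to raise the HFDmetf level. Without HFD M2 and HFD F2, the libraries that go against their sex labels, 7 were negative and 2 positive, with a median of −0.38. Without CD M3 and HFDmetf F2, also a pair chosen after seeing the data, all 9 were negative (median −0.33). All 9 were negative with limma-voom and with DESeq2 as well.

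Under the control diet (CDmetf vs. CD), 0 of 9 genes were called, beside 0% of all genes, and 0 of 9 had an unadjusted p under 0.05 beside 5.14%. *Mep1a* was positive (logFC = 0.24, SE 0.47; FDR = 0.999) and the other 8 were negative, with a median of −0.17 against −0.0023 for all genes. *Lct* (logFC = −1.09, SE 1.43; FDR = 0.988) and *Sis* (logFC = −0.61, SE 0.46; FDR = 0.954) were farthest from 0 by edgeR, and *Lct* lay between −2.28 without CDmetf F3 and −0.55 without CD M1. Each group enters 2 of these 4 comparisons, so their directions are not independent of each other.

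**Figure D2:**
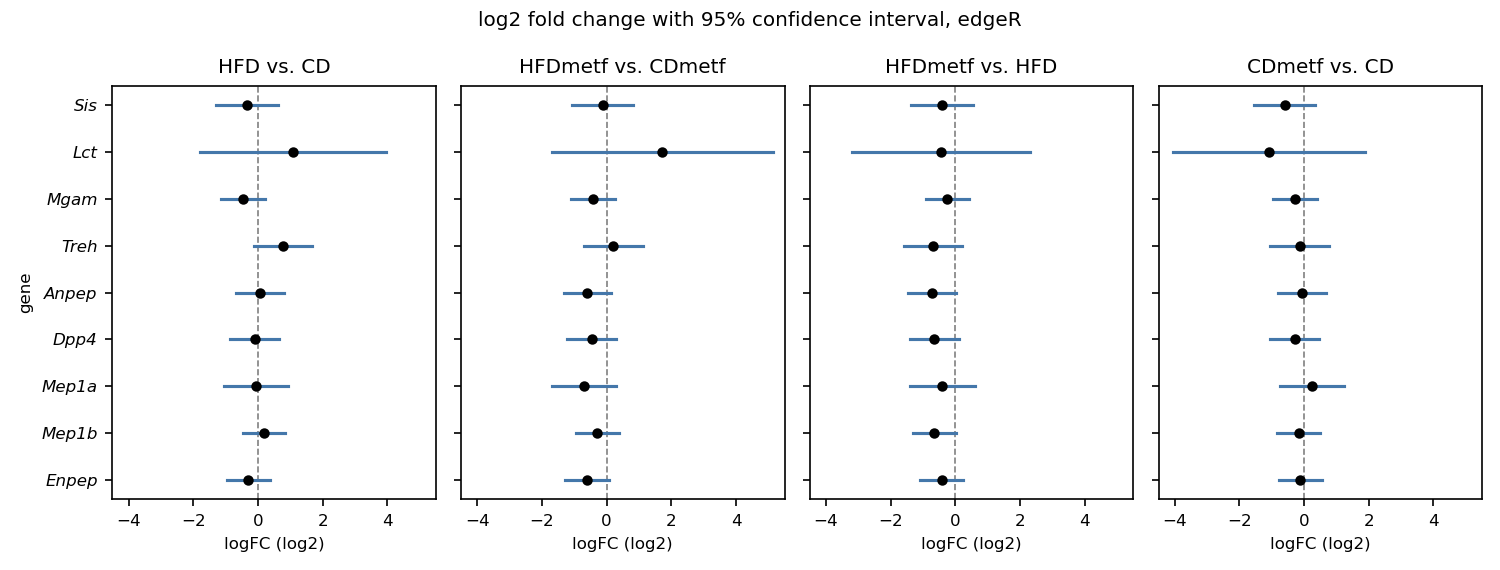
log2 fold change of each gene (horizontal axis, points) with its 95% confidence interval (lines) from edgeR in 4 comparisons. Every interval includes 0; those of *Lct* are the widest, from −1.69 to 5.14 in HFDmetf vs. CDmetf, and all 9 points lie below 0 in HFDmetf vs. HFD.

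Pooling the animals over the other factor narrowed the intervals without a call. For the high-fat against the control diet over both metformin arms, 0 of 9 genes were called (0% of all genes) and 0 of 9 had an unadjusted p under 0.05 (5.96%). *Enpep* (logFC = −0.45, SE 0.23; FDR = 0.857) and *Mgam* (logFC = −0.45, SE 0.23; FDR = 0.857) were nearest to the threshold, with unadjusted p values of 0.0600 and 0.0657 by edgeR. Among 12 pairs of animals matched by labelled sex and replicate number, 4 had more *Enpep* and 5 more *Mgam* under high fat. *Lct* (logFC = 1.40, SE 1.14; FDR = 0.953) was higher in 6 of them. HFD M2 and HFD F2 go against their sex labels, so their pairs were not matched by sex. The labels do not tie the replicate number to a block. Without HFD M2 and HFD F2 *Mgam* was at −0.62 with an unadjusted p of 0.0214 (FDR = 0.693), the 1 of the 9 genes under 0.05, beside 5.91% of all genes. With DESeq2 and with no filter on low counts, 2 of 9 were under 0.05, beside 7.11% and 4.49%. It was 1 of 9 with limma-voom, beside 7.62%, without the replicate block, beside 4.54%, and with the region score as covariate, beside 4.04%. In each of these settings 0 of the 9 were called.

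For metformin against none over both diets, 0 of 9 genes were called (0%) and 0 of 9 had an unadjusted p under 0.05 (5.04%). All 9 values were negative, from *Mep1a* (logFC = −0.08, SE 0.34; FDR = 0.966) to *Lct* (logFC = −0.76, SE 0.95; FDR = 0.849). *Mep1b* (logFC = −0.41, SE 0.23) and *Dpp4* (logFC = −0.47, SE 0.26) had unadjusted p values of 0.0823 and 0.0873 by edgeR, with FDR = 0.794 for both. *Dpp4* was higher with metformin in 2 of 12 pairs, formed by label in the same way and with the same limits. *Lct* lay between −2.33 without HFDmetf M2 and −0.36 without HFD M2 and HFD F2. Without HFDmetf M1 and HFDmetf F2, the pair chosen after seeing the data, the median of the 9 values was −0.20 in place of −0.41, with 8 negative. With limma-voom 1 of 9 genes had an unadjusted p under 0.05, beside 5.71% of all genes, and with the region score as covariate 1 of 9, beside 3.2%. Without CD M3 and HFDmetf F2, also a pair chosen after seeing the data, it was 2 of 9, beside 7.48%. In each of these settings 0 were called.

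The difference of the metformin effect between the diets (interaction) was called for 0 of 9 genes and 0% of all genes, and 0 of 9 against 6.03% had an unadjusted p under 0.05. It was negative for 6 genes and farthest from 0 for *Anpep* (−0.66, SE 0.50; FDR = 0.811). Between females and males 0 of 9 genes were called beside 0.0071% of all genes, which is 1 gene, and 0 of 9 had an unadjusted p under 0.05 beside 7.27%. *Lct* had the largest value by the labelled sex (logFC = 0.98, SE 1.10; FDR = 0.827). With HFD M2 and HFD F2, which go against their sex labels, left out, *Lct* was at 0.78 (FDR = 0.929), and 0 of 9 enzymes were called, beside 8 of 15044 genes. With limma-voom on the 24 libraries 1 of 9 had an unadjusted p under 0.05, beside 9.68% of all genes, and 0 of 9 were called.

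The 9 genes were next described across the 24 libraries in relation to a pair of scores, each a mean z-score of log2 CPM. The region score was taken as 6 genes known from the proximal small intestine (*Gata4*, *Onecut2*, *Fabp1*, *Apoa4*, *Apoc3*, *Rbp2*) minus 9 genes known from the distal part, *Fabp6* and the bile acid transporter genes among them. The microvillus score was taken over 12 structural genes such as *Vil1* and *Myo1a*. With the 36 pairs among the enzymes, 54 relations were computed, and p values are from 100000 permutations, of which 1e-05 is the smallest they can give, with Benjamini-Hochberg adjustment over the 54. All points share the libraries and their scaling. *Apoa4* and *Fabp1* of the region score are also among the paper's top genes between the diets, so the score does not measure the region alone.

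*Lct* followed the region score (r = 0.77, permutation p = 1e-05, adjusted 4.5e-05; rho = 0.86, p = 1e-05, adjusted 0.000108), and r was 0.82 without the 2 libraries farthest from the median score. *Treh* did so as well (r = 0.77, permutation p = 2e-05, adjusted 7.71e-05; rho = 0.83, p = 1e-05, adjusted 0.000108; 0.77 without the 2 farthest). *Mep1a* ran the other way (r = −0.76, permutation p = 7e-05, adjusted 0.00018; rho = −0.68, p = 0.00043, adjusted 0.00166), with r = −0.58 without the 2 farthest, of which HFD M3 had the lowest *Mep1a*, 87.0 CPM. Within the libraries of replicate numbers 1, 2 and 3 the r values were 0.85, 0.76 and 0.69 for *Lct*, 0.84, 0.45 and 0.84 for *Treh* and −0.57, −0.82 and −0.87 for *Mep1a*. With the group means removed they were 0.76, 0.77 and −0.75. These 3 of the 9 genes passed in both measures, and *Anpep* had r = 0.04 (permutation p = 0.866, adjusted 0.882; rho = −0.09, p = 0.69, adjusted 0.716).

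HFD M3 illustrates the opposite course of *Lct* and *Mep1a*. It held *Lct* at 2882 CPM and *Mep1a* at 87.0 CPM, with the highest *Gata4* (114 CPM) and *Fabp1* (1660 CPM) and the lowest *Fabp6* (0.817 CPM). *Gata4*, *Fabp1* and *Fabp6* are part of the region score, which was highest in this library. CDmetf M3 held *Lct* at 0.914 CPM and *Mep1a* at 1457 CPM, with *Gata4* at 1.01 and *Fabp6* at 1622 CPM. The *Lct* to *Mep1a* ratio went from 0.000639 in CDmetf M3 to 33.04 in HFD M3. Across all libraries, however, the relation of *Lct* to *Mep1a* itself did not pass (r = −0.33, permutation p = 0.12, adjusted 0.15; rho = −0.40, p = 0.0502, adjusted 0.0716).

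In the order of libraries, the 8 lowest values of *Lct* (0.796 to 140 CPM) and the 8 lowest values of *Gata4* (0.301 to 6.06 CPM) were in the same 8 libraries. Of these, 2 were of CD, 4 of CDmetf, 0 of HFD and 2 of HFDmetf. By name they were CD M2 and F2, CDmetf M1, M2, M3 and F2, and HFDmetf M1 and F2. Every control-diet library of replicate number 2 was among them, so the set was uneven over the replicate number as well as over the groups. *Gata4* codes for a transcription factor that is known to be present in the jejunum and absent from the distal ileum. The other 16 libraries held *Lct* at 372 to 3122 CPM and *Gata4* at 20.1 to 114 CPM, so neither gene had values between these ranges. *Enpp7*, the alkaline sphingomyelinase, and *Asah2*, the neutral ceramidase, both brush-border enzymes of lipid digestion, had their 8 lowest values in the same libraries. *Fabp6* lay between 1216 and 2662 CPM in these 8 and reached 1762 CPM at most in the others. This is a description of the order, to which no test was applied. The position along the intestine from which each piece of tissue came was not tested.

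**Figure D3:**
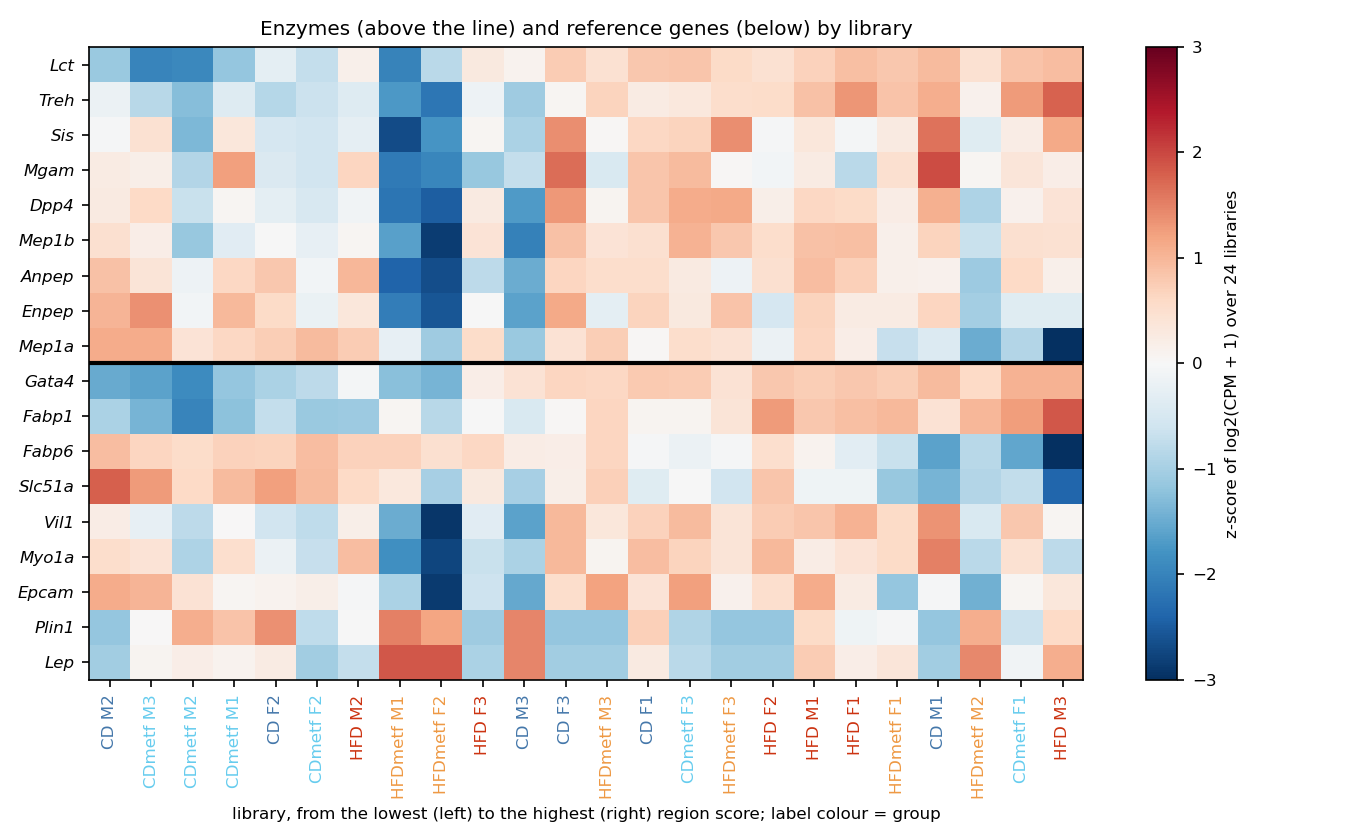
z-score of log2(CPM + 1) of the 9 enzymes (above the line) and 9 reference genes (below) in the 24 libraries, ordered from the lowest to the highest region score, with the label colour giving the group. *Lct* and *Treh* go from low (blue) at the left to high (red) at the right, and *Mep1a* goes the other way. *Gata4*, *Fabp1*, *Fabp6* and *Slc51a* are part of the region score, so their course follows from the sorting. HFDmetf M1 and HFDmetf F2 are below the mean in all 9 enzymes and above it in *Plin1* and *Lep*.

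The microvillus score moved with another set of enzymes, which shared *Treh* with that of the region score. *Anpep* followed it most closely (r = 0.93, permutation p = 1e-05, adjusted 4.5e-05; rho = 0.69, p = 0.0003, adjusted 0.00125), and r was 0.87 without the 2 farthest libraries and 0.91, 0.97 and 0.97 within the replicate numbers. In all, 7 of the 9 genes passed in both measures. *Mep1b*, *Dpp4*, *Enpep*, *Mgam*, *Sis* and *Treh* followed with r from 0.87 down to 0.67, and without the 2 farthest libraries their r lay between 0.42 (*Treh*) and 0.73 (*Dpp4*). *Lct* (r = 0.36, permutation p = 0.0813, adjusted 0.107; rho = 0.42, p = 0.0435, adjusted 0.0652) and *Mep1a* (r = 0.39, permutation p = 0.0627, adjusted 0.0847; rho = 0.35, p = 0.0924, adjusted 0.125) did not pass.

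**Figure D4:**
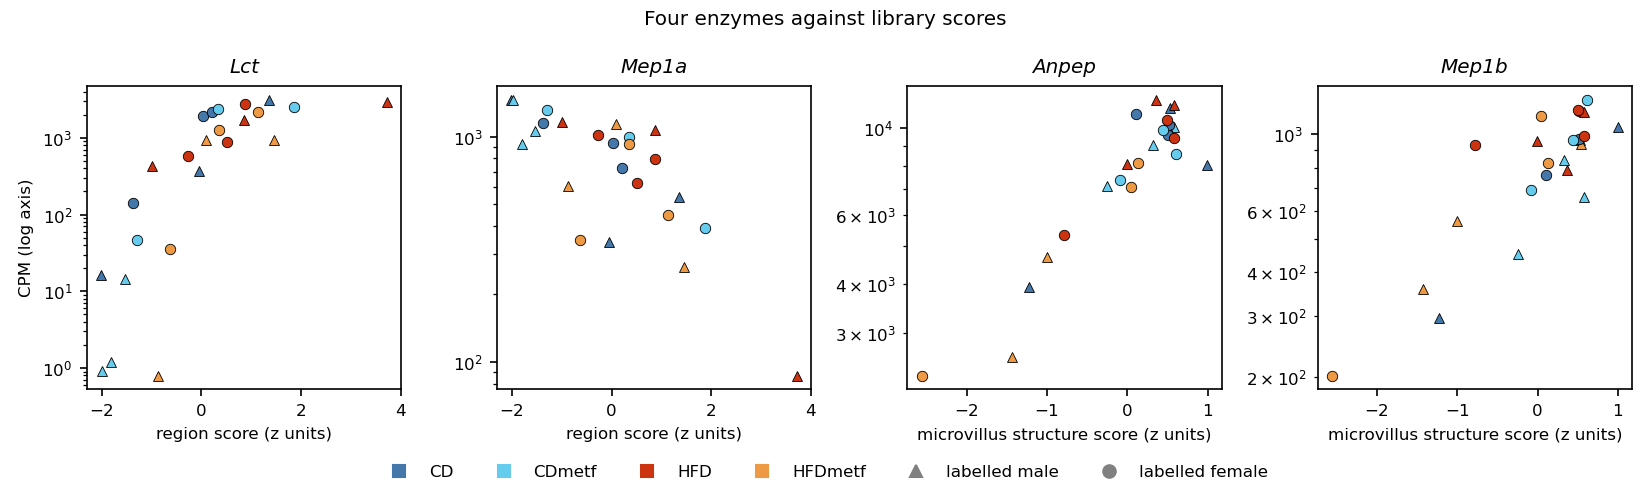
Level in CPM (vertical log axis) of *Lct* and *Mep1a* against the region score and of *Anpep* and *Mep1b* against the microvillus structure score (horizontal axes, z units), 1 point per library, coloured by group. *Lct* is higher and *Mep1a* lower at higher region scores, and the *Anpep* and *Mep1b* points lie along an ascending line that ends at the lower left in HFDmetf F2.

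Among the enzymes themselves 22 of 36 pairs passed in both measures, and all 22 were positive. *Dpp4* and *Mep1b* were closest (r = 0.95, permutation p = 1e-05, adjusted 4.5e-05; rho = 0.90, p = 1e-05, adjusted 0.000108; 0.91 without the 2 farthest), with r between 0.93 and 0.98 within the replicate numbers and a ratio of CPM that stayed between 0.612 and 1.39. *Sis* and *Dpp4* came next (r = 0.91, permutation p = 1e-05, adjusted 4.5e-05; rho = 0.91, p = 1e-05, adjusted 0.000108; 0.85 without the 2 farthest). The aminopeptidase genes *Anpep* and *Enpep* had r = 0.85 (permutation p = 1e-05, adjusted 4.5e-05; rho = 0.61, p = 0.00195, adjusted 0.00439; 0.66 without the 2 farthest), and the ratio of *Enpep* to *Anpep* stayed between 0.134 and 0.320. *Mep1a* passed with 1 of the other 8 genes, *Enpep* (r = 0.55, permutation p = 0.0069, adjusted 0.011; rho = 0.64, p = 0.00087, adjusted 0.00313). With *Mep1b*, the other meprin subunit gene, its r was 0.29 (permutation p = 0.159, adjusted 0.191; rho = 0.15, p = 0.469, adjusted 0.517).

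The promoter sequences of *Lct* and *Mep1a*, which ran in opposite directions along the region score, and of the starch-digesting pair *Sis* and *Mgam* are given, since genes of intestinal transcription factors, *Gata4* among them, were also measured. The 250 bases before the transcription start were read from the RefSeq promoter table of GRCm38.p6, which matched 8 of the 9 genes. They are written 5′ to 3′ on the strand of the gene. The RefSeq starts of *Mep1a* and *Anpep* lie inside the GENCODE spans given above, so the windows of these genes overlap the annotated gene. Positions are counted from the RefSeq start. Capitals mark AGATAA, bound by GATA factors, TTTATG, bound by CDX factors, GTTAAT, a part of the HNF1 site, and CAAAGT, a part of the HNF4 site, on either strand, and no match overlapped another.

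Lct, chr1:128328319-128328568, minus strand: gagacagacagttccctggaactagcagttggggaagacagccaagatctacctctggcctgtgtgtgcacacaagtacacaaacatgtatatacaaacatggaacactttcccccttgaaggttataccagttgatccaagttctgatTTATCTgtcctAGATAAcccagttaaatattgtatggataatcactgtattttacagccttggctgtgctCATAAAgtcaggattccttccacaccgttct
Mep1a, chr17:43502774-43503023, minus strand: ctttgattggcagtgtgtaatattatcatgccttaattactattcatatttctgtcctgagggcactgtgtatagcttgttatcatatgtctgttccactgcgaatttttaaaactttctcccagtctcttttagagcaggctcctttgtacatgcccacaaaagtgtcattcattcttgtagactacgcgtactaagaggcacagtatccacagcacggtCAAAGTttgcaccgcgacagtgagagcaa
Sis, chr3:72967864-72968113, minus strand: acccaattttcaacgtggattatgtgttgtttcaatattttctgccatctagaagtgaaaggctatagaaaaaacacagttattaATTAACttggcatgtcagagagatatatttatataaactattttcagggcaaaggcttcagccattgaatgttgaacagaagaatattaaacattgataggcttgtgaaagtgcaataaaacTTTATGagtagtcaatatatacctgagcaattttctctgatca
Mgam, chr6:40628581-40628830, plus strand: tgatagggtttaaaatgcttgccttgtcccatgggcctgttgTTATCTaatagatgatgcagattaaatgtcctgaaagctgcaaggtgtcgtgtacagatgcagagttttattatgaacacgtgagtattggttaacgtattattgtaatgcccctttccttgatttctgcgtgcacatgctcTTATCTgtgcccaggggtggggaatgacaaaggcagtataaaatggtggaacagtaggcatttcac

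*Lct* held AGATAA on opposite strands at −101 and −90 bases and TTTATG at −31. *Mgam* held AGATAA at −208 and −66, *Sis* held GTTAAT at −165 and TTTATG at −43, and *Mep1a* held CAAAGT at −29. Of those not printed, *Dpp4* held AGATAA at −32 and *Treh* held CAAAGT at −227 and −68, and *Anpep* and *Enpep* held none of the 4 motifs in this window. Of all 32851 promoters of this length 9.99% held AGATAA, 10.8% TTTATG, 6.43% GTTAAT and 12.6% CAAAGT on either strand. A match is a description of the letters.

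The genes most like the enzymes were named by Spearman correlation over the 24 libraries with the mean z-score of the 9 genes. They were *Cndp2* (rho = 0.942), a cytosolic dipeptidase, *Vil1* (0.927), *Slc15a1* (0.918), the peptide transporter of the brush border, *Clca4b* (0.911), *Clic5* (0.910), *Cs* (0.907), *Pepd* (0.903), a prolidase, and *Ugcg*, *Phlpp2* and *Npc1l1* (0.899 each), the last of them the intestinal cholesterol uptake gene. For single enzymes the nearest gene was *Enpp3* for *Lct* (0.977), *Heph* for *Dpp4* (0.963), *Cyp2d26* for *Treh* (0.972) and *Dpep1* for *Enpep* (0.898). *Mep1a* (*Rnf152*, 0.850) and *Anpep* (*Tcn2*, 0.791) had lower values. These values describe likeness and carry no test.

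Other genes of the brush border were read from lists. Of 15 other hydrolases 12 were tested, while *Tmprss15*, *Folh1* and *Akp3* stayed below the filter, at most 0.314, 0.796 and 7.53 CPM in any library. None of the 12 was called in any comparison. In HFDmetf vs. HFD all 12 were negative (median −0.67), from *Naaladl1* (logFC = −0.25, SE 0.32; FDR = 0.794) to *Enpp3* (logFC = −1.63, SE 0.91; FDR = 0.640), and in HFD vs. CD 10 of 12 were positive (median 0.52), with *Enpp3* highest (logFC = 1.36, SE 0.92; FDR = 1.00) and *Dpep1* lowest (logFC = −0.11, SE 0.28; FDR = 1.00). The corresponding medians of the 9 enzymes were −0.44 and −0.07. In HFDmetf vs. CDmetf *Plb1* was highest (logFC = 1.61, SE 1.47; FDR = 0.792) with 6 of 12 positive, and in CDmetf vs. CD *Naaladl1* was highest (logFC = 0.27) and *Plb1* lowest (logFC = −1.10).

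The 12 microvillus structure genes were all negative in HFDmetf vs. HFD (median −0.46) and in HFDmetf vs. CDmetf (median −0.38), with none called by edgeR. *Espn* (logFC = −0.74, SE 0.30; FDR = 0.640), an actin-bundling protein gene, was lowest in the first and *Tmigd1* (logFC = −1.95, SE 0.82; FDR = 0.610) in the second, and each had an unadjusted p under 0.05. They had 5 of 12 positive in HFD vs. CD (median −0.03) and 6 of 12 in CDmetf vs. CD (median −0.03). Of the 9 enterocyte transcription factor genes, none was called either. *Gata4* was highest in HFD vs. CD (logFC = 0.90, SE 0.94) and in HFDmetf vs. CDmetf (logFC = 1.12, SE 1.04), and lowest in HFDmetf vs. HFD (logFC = −0.61, SE 0.94) and in CDmetf vs. CD (logFC = −0.82, SE 0.97). In each of these comparisons its sign was that of *Lct*.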

How the data were processed

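Small intestinal RNA of 24 mice was sequenced after rRNA depletion and directional library preparation. The authors trimmed reads with Trimmomatic 0.39, aligned them to GRCm38 with STAR 2.5.3a and deposited raw read counts for 55536 genes. Which annotation release and which strand were counted is not given in the sources used here. From these counts, the 4 summary rows were removed, and 14076 genes passing filterByExpr were tested with edgeR 4.0.16 (quasi-likelihood, TMM, R 4.3.3) in 1 model of the 24 libraries. Its terms were the group, the sex and the number of the replicate, which left 17 residual degrees of freedom, and the threshold was a Benjamini-Hochberg FDR of 0.05. limma-voom (limma 3.58.1), DESeq2 1.42.0, other filters and left-out libraries were alternatives. Scripts were tested on simulated data. p-values measure the spread between animals. The labels do not say that replicate numbers mark the 3 time blocks. Deviations of same-numbered libraries had a mean correlation of 0.154 over 72 pairs (−0.466 to 0.667), against −0.0768 over 144 others. The deviations were taken from the mean of each group and sex and sum to 0 there. The second value therefore follows largely from the first and is no separate comparison. All 9 enzymes were named, and of related lists the genes with the highest and lowest fold change, and the 10 genes most like the enzymes. Members and lists were chosen with earlier results of these data known. GENCODE coordinates and RefSeq promoters are of GRCm38. Depth was 1829690 to 40606442 reads per library, and floors of 3 reads cover counting error only. Some genes covered by the rule for named genes are not reported here.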

Additional observations from a re-analysis of the deposited data

Results flagged for a closer look

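In 36 sets of 6 libraries, 1 for each enzyme and group, 2 held a library far from the other 5, with a gap to the nearest of them over Dixon's 95% critical share of the whole range. Chance gives about 1 in 20 such sets. *Sis* was 7831 CPM in HFD M3 (gap 0.676 of the range), the library with the highest region score. *Enpep* was 783 CPM in CD M3 (gap 0.686), in which the 10 largest genes took 85.4% of the reads.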

How the results depend on the processing

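None of the 9 enzymes was called under any of the settings tried, the smallest FDR of a member being 0.276 (*Anpep* in HFDmetf vs. HFD without HFD F3). Of 2304 alternative values of the 72 log2 fold changes 2213 kept their sign, and 91, in 28 of the 72, reversed it; none of these fold changes was called, and the cause was not tested. Without the replicate block 0 members were called in every comparison, and the block changed no call among them. Leaving out a library or a pair moved a further 42 of the 72 fold changes by over 1.5 times without a change of sign. Leaving out single libraries or a pair moved the log2 fold changes whose sign turned over these ranges. In HFD vs. CD they were *Sis* −0.57 to 0.026, *Anpep* −0.13 to 0.21, *Dpp4* −0.33 to 0.061, *Mep1a* −0.26 to 0.18 and *Mep1b* −0.013 to 0.37. In HFDmetf vs. CDmetf they were *Sis* −0.46 to 0.33, *Treh* −0.026 to 0.69 and *Mep1b* −0.43 to 0.10. In HFDmetf vs. HFD they were *Sis* −0.72 to 0.023, *Lct* −2.90 to 0.29 and *Mgam* −0.46 to 0.11. In CDmetf vs. CD they were *Treh* −0.44 to 0.071, *Anpep* −0.26 to 0.053 and *Enpep* −0.36 to 0.030. In the interaction they were *Sis* −0.20 to 0.62, *Lct* −1.13 to 1.82, *Mgam* −0.16 to 0.41, *Dpp4* −0.62 to 0.041 and *Enpep* −0.53 to 0.049. In the diet over both arms they were *Sis* −0.39 to 0.023 and *Mep1b* −0.16 to 0.16. In metformin over both diets the range was *Mep1a* −0.28 to 0.023. In females against males they were *Sis* −0.026 to 0.30, *Mgam* −0.17 to 0.0015, *Treh* −0.0046 to 0.29, *Anpep* −0.073 to 0.16, *Mep1a* −0.22 to 0.069 and *Enpep* −0.10 to 0.091. With limma-voom the reversed values were *Sis* 0.017 and *Dpp4* 0.16 in HFD vs. CD, *Treh* −0.034 in HFDmetf vs. CDmetf, *Anpep* 0.013 in CDmetf vs. CD, *Sis* −0.55, *Lct* −0.54 and *Mgam* −0.24 in the interaction, *Mep1a* 0.065 for metformin over both diets, and *Anpep* −0.0091, *Mep1a* 0.088 and *Enpep* −0.026 between the sexes. With no filter on low counts *Mgam* was −0.033 in the interaction. The number of genes called over the whole table was 13 in HFD vs. CD, 4 in CDmetf vs. CD, 4 in the interaction, 48 for the diet over both arms and 22 between the sexes with DESeq2. It was 2 for the diet over both arms with limma-voom, with no filter or with the region score as covariate, and 15 between the sexes with no filter. Without single libraries it ranged from 0 to 1 in HFD vs. CD, from 0 to 6 for the diet over both arms and from 1 to 8 between the sexes. Between the sexes it was 8 without HFD M2 and HFD F2, and 0 without CD M3 and HFDmetf F2 or without HFDmetf M1 and HFDmetf F2, pairs chosen after seeing the data. Libraries with 3 reads worth up to 1.71 CPM limit the lowest *Lct* values.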
